A study of Mus musculus with 21 samples.

Results

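The 35 sarcomere and Z-disc structure genes described here were named individually by symbol, and each symbol was looked up among the 53801 gene identifiers counted in every heart library. All 35 were found and all 35 passed the filter on low counts, so that they are described as part of the 17064 genes tested. RNA-seq libraries of the infarct border zone of mouse hearts were compared at day 7 in 4 groups, 15 libraries in all of the 21 in the series. The FAPI group held 4 libraries from WT mice with myocardial infarction (MI) that were treated with FAPI, in a study whose title speaks of inhibition of Fap, the serine protease fibroblast activation protein. The FapKO group held 4 libraries from mice labelled FapKO that also had MI, the MI group 4 libraries from WT mice with MI and no further treatment named, and the sham group 3 libraries from WT mice labelled border zone although the treatment given is sham. The FAPI, FapKO and MI groups thus share the infarct, and the FAPI, MI and sham groups share the WT genotype. The FAPI compound and dose, the strain, age and sex, the allele of the knockout and the number of animals behind each library are not stated in the sources used here. The libraries of a group are numbered but not said to come from separate animals, so that p-values measure the spread between libraries only.

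The sarcomere is the repeating contractile unit of striated muscle, in which myosin thick filaments pull on actin thin filaments anchored at the Z-disc. Titin spans from the Z-disc to the M-band and acts as a spring, while desmin filaments tie neighbouring myofibrils and the membrane together. In the ventricle most of these proteins are made mainly by cardiomyocytes, the cells that are lost in an infarct, while some, such as desmin and tropomyosin, are also made by smooth muscle cells. In RNA from whole tissue fewer cardiomyocytes and less RNA per cardiomyocyte cannot be told apart.

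Library totals were 18474138 to 37287355 counts. Fap itself was present at 7.75, 8.40, 10.4 and 6.47 CPM (counts relative to the scaled library total) in FAPI hearts, at 2.19, 2.32, 2.36 and 1.79 CPM in FapKO hearts, at 11.1, 13.2, 9.40 and 11.0 CPM in MI hearts and at 2.71, 3.40 and 3.86 CPM in sham hearts. The FapKO hearts were thus the lowest, without overlap with any other group, but not at 0; which exons the knockout removes is not given in the sources used here, so that reads outside them check nothing. The 35 genes together took 4.43 ± 0.724% of all counts in FAPI hearts, 4.57 ± 0.130% in FapKO hearts, 2.07 ± 0.935% in MI hearts and 5.05 ± 0.202% in sham hearts (SD). Some MI and FapKO libraries stood apart from their groups. MI replicate 3 had the highest level of its group for 30 of the 35 genes. MI replicate 2 and FapKO replicate 1 held fast skeletal muscle RNA, with the 14 marker genes summing to 879.73 CPM in MI replicate 2, against 28.01 to 63.7 CPM in the other MI hearts, and to 344.09 CPM in FapKO replicate 1, against 41.7 to 62.1 CPM in the other FapKO hearts. The counts of the 35 genes in the 5 comparisons with MI or FapKO hearts are therefore also given without MI replicate 2 and FapKO replicate 1, an alternative chosen after seeing the data, and MI replicate 3 is named where leaving it out moves a value.

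Levels are compared between genes per length of exon, which presumes reads spread along the whole transcript. Whether the deposited values count reads or UMIs (molecule barcodes) is not stated, so that the order of genes is uncertain to that extent. In sham hearts, the regulatory light chain gene Myl2 averaged 9106 ± 1187 CPM per kilobase of exon, the titin cap gene Tcap 7345 ± 863, the troponin C gene Tnnc1 6635 ± 689.9 and the essential light chain gene Myl3 4901 ± 349 (SD, n = 3 hearts). The small heat shock protein gene Cryab at 3630.2 ± 431 and the LIM protein gene Fhl2 at 1389 ± 119 CPM per kilobase led their own role groups. At the lower end stood the M-band and obscurin-family genes Obsl1 at 0.709 ± 0.0868 and Myom3 at 0.169 ± 0.0269 CPM per kilobase. For 21 of the 35 genes, the FAPI mean was below the FapKO mean, the FapKO mean below the sham mean and the MI mean below all of them. MI was the lowest group for 31 genes, and sham the highest for 24. The median coefficient of variation within a group was 29.3% in FAPI, 13.1% in FapKO, 50.8% in MI and 10.4% in sham hearts.

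**Figure D1:**
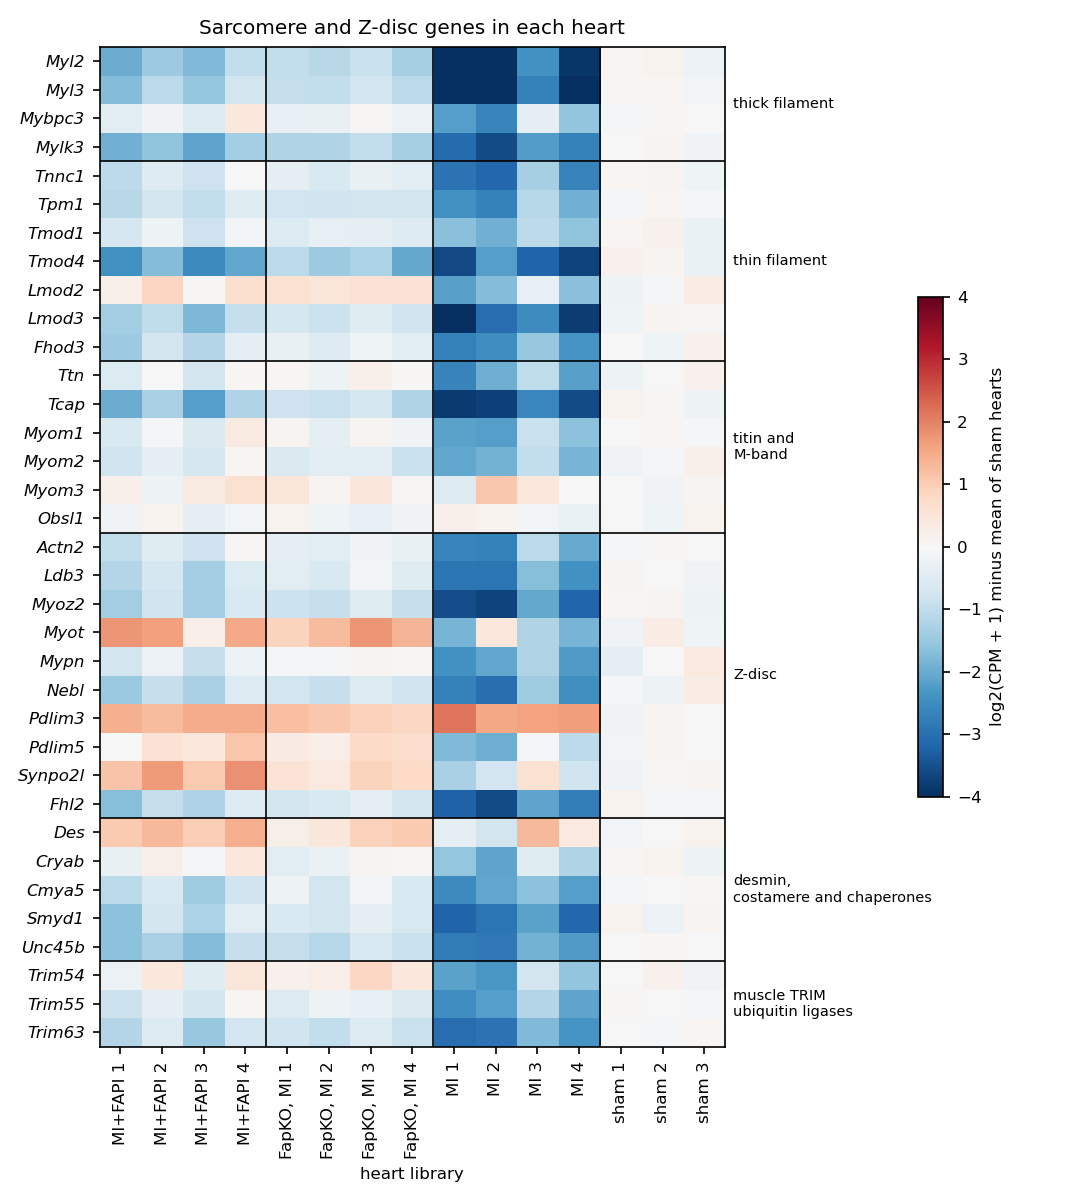
Each cell is 1 of the 35 genes (down the page, grouped by role) in 1 of 15 heart libraries (across), coloured by log2(CPM + 1) after TMM scaling minus the mean of the sham hearts, with colours saturating at 4. On this scale the MI columns are blue for most genes, MI replicate 3 is paler than the other MI hearts, and Pdlim3 is red in all 12 infarcted hearts.

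The first comparison sets infarcted against sham-operated hearts. In MI hearts, 29 of the 35 genes fell and 1 rose relative to sham hearts, and 5 did not pass the test (edgeR's quasi-likelihood test, Benjamini-Hochberg adjusted p under 0.05 over all genes tested). Of all genes tested, 32.0% were called lower and 37.1% higher in the same comparison, 69.1% in all. The hearts of the MI and sham groups did not overlap for 28 of the 35 genes in the lower direction and for 1 in the higher, beside 31.1% and 36.4% of all genes. The median log2 fold change of the 35 genes was -2.09, against 0.14 over all genes. All 4 thick filament genes, all 7 thin filament genes and all 3 muscle TRIM ligase genes fell, as did 4 of 6 titin and M-band genes, 7 of 10 Z-disc genes and 4 of 5 genes of the desmin, costamere and chaperone group; with libraries scaled to cardiomyocyte genes outside the sarcomere 11 of these 29 lay on the other side of 0 (Mybpc3, Tmod1, Lmod2, Tpm1, Ttn, Myom1, Myom2, Actn2, Pdlim5, Cryab and Trim54), and Pdlim5 also with libraries scaled to total counts. The 5 genes that did not pass were Obsl1, Des, Myom3, Synpo2l and Myot, and the gene that rose was Pdlim3. Myot had 15.4 CPM in MI replicate 2, the heart with skeletal muscle RNA. The other MI hearts had 2.39 to 4.39 CPM and lay below every sham heart. Its log2 fold change was -1.90 without MI replicate 2 and FapKO replicate 1, and 1.48 with libraries scaled to cardiomyocyte genes outside the sarcomere. Its adjusted p ran from 0.000356 to 0.641 over the alternative settings (edgeR's or DESeq2's test), so that its not passing depends on the setting. Without MI replicate 3 the median was -2.43, with 30 genes lower, beside 32.0% of all genes. Without MI replicate 2 and FapKO replicate 1, it was -2.03, with 29 genes lower and 1 higher, beside 31.0% and 35.5% of all genes. These 29 need not be the same genes as with all hearts.

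FAPI and FapKO hearts were each set against the same MI hearts, which asks whether FAPI or loss of Fap goes with other levels after infarction. The series holds no sham hearts with FAPI or from FapKO mice. A difference already present without infarction therefore cannot be told apart from a different response to it. Relative to sham, FapKO hearts differ in genotype and infarct together, and FAPI hearts in treatment and infarct together. In FAPI hearts 31 genes rose and 1 fell relative to MI hearts, beside 17.9% and 11.9% of all genes tested, or 29.8% in either direction. The 2 groups did not overlap for 27 genes that were higher in FAPI and 1 that was lower, beside 15.6% and 10.5% of all genes. In FapKO hearts 31 genes rose and 1 fell relative to MI hearts, beside 25.0% and 26.0% of all genes, or 51.0% in either direction. Here 30 genes were higher and 1 lower without overlap, beside 22.6% and 22.8%. Both comparisons, and that of MI with sham hearts, share the MI hearts. With libraries scaled to cardiomyocyte genes outside the sarcomere, 6 of the 31 genes lay on the other side of 0 in FAPI relative to MI hearts (Tmod4, Unc45b, Myom2, Mylk3, Tpm1 and Cmya5) and 10 of the 31 in FapKO relative to MI hearts (Mybpc3, Tmod1, Tmod4, Tpm1, Myom1, Myom2, Nebl, Synpo2l, Cryab and Unc45b). The median log2 fold change of the 35 genes was 1.49 in FAPI relative to MI hearts, against -0.03 over all genes, and 1.75 in FapKO relative to MI hearts, against -0.08 over all genes. Without MI replicate 3 these medians were 1.92 and 2.08, and without MI replicate 2 and FapKO replicate 1 they were 1.37 and 1.68, with 31 genes higher and 1 lower in each. Of all genes tested without those 2 libraries, 14.2% were higher and 8.93% lower in FAPI relative to MI hearts. In FapKO relative to MI hearts it was 22.3% and 22.0%. In FAPI relative to MI hearts, Pdlim3 was the gene that fell, and Obsl1 (-0.14), Myom3 (-0.16) and Des (0.84) did not pass. In FapKO relative to MI hearts, Pdlim3 fell, and Obsl1 (-0.16), Myom3 (-0.15) and Des (0.33) did not pass.

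**Figure D2:**
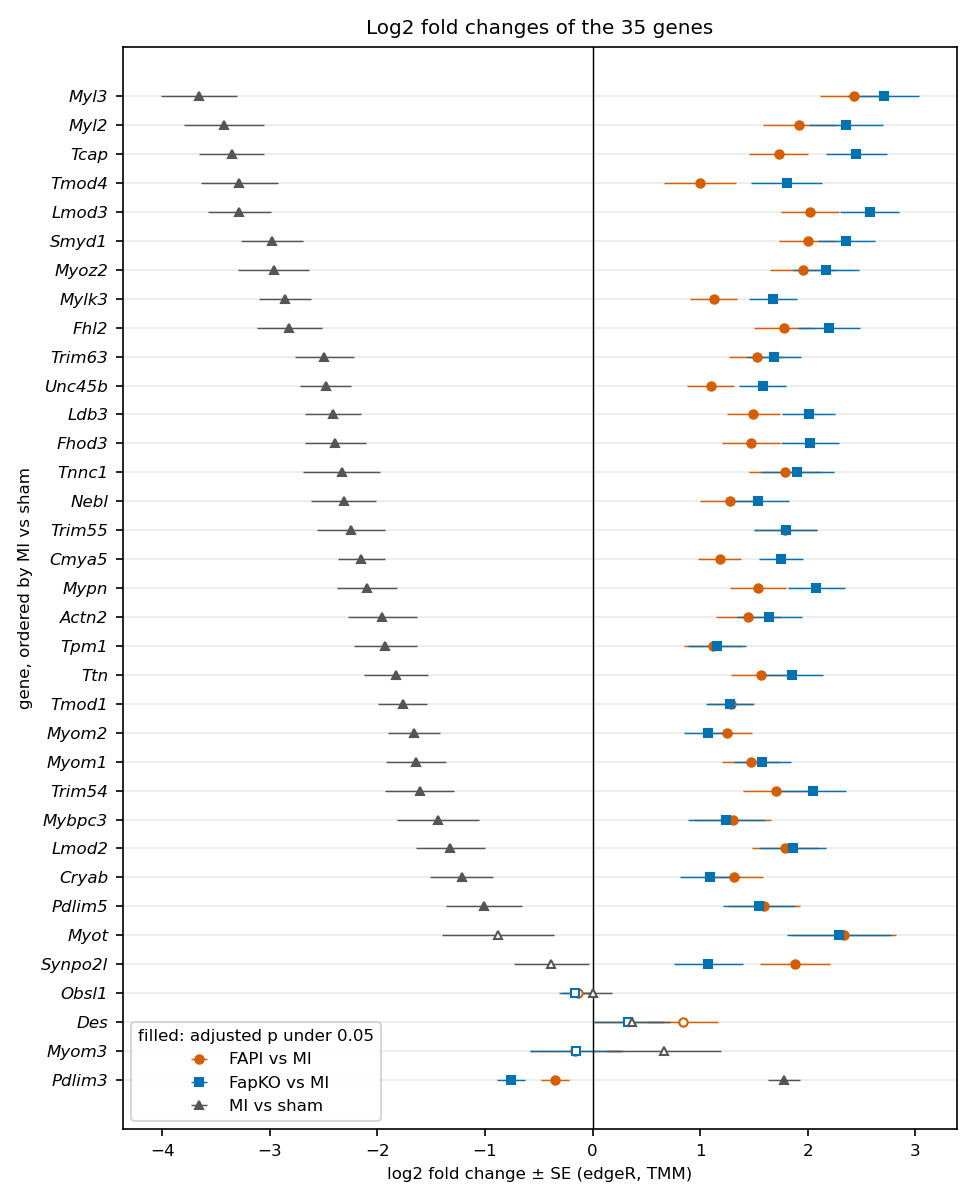
Log2 fold changes (x axis, bars ± SE) of the 35 genes (y axis) in FAPI relative to MI hearts, FapKO relative to MI hearts and MI relative to sham hearts on the TMM scale, with filled symbols for adjusted p under 0.05. The triangles run to -3.66 at Myl3, the circles and squares lie to the right of 0 for most genes, and Pdlim3 is on the opposite side from them in all 3 comparisons; the 3 comparisons share the MI hearts.

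Relative to sham hearts, FAPI hearts had 4 genes higher and 16 lower, beside 29.2% and 26.5% of all genes tested (55.8% in either direction), and a median of -0.54, against 0.09 over all genes. Without overlap of the groups, 3 were higher and 16 lower, beside 30.0% and 27.5% of all genes. FapKO hearts had 2 genes higher and 9 lower relative to sham hearts, beside 19.2% and 20.3% of all genes (39.5% in either direction), and a median of -0.41, against 0.05 over all genes. Without overlap, 7 genes were higher and 20 lower than sham, beside 23.1% and 23.7% of all genes. The same numbers passed the test when only these 2 groups were fitted, beside 21.6% and 20.4% of all genes. The 9 lower genes were the light chain genes Myl2 and Myl3, the kinase gene Mylk3, Tcap, Tmod4, Tpm1, Nebl, Unc45b and Trim63. Both comparisons share the sham hearts. The 9 lower calls in FapKO hearts rested on few libraries, with 3 called without FapKO replicate 4 or without sham replicate 1. The share of all genes called lower was then 17.3% and 14.1%, instead of 20.3%. Without MI replicate 2 and FapKO replicate 1, 2 genes were higher and 7 lower in FapKO relative to sham hearts, beside 17.6% and 18.9% of all genes. Between FAPI and FapKO hearts 1 gene, Pdlim3, was higher in FAPI hearts and 0 were lower by edgeR's test, beside 7.05% and 6.12% of all genes (13.2% in either direction). DESeq2 called 2 lower, beside 8.39% of all genes. With MI replicate 2 and FapKO replicate 1 left out, edgeR's test called 1 higher and 0 lower there, beside 4.98% and 4.65% of all genes. The groups did not overlap for Pdlim3 and Synpo2l, higher in FAPI hearts, and for Mylk3, Lmod3, Tcap and Mypn, lower in FAPI hearts, that is 2 and 4 of the 35, beside 9.77% and 8.88% of all genes. Over all genes, 5033 had an unadjusted p under 0.05 in that comparison.

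How the libraries are scaled bears on these values, since TMM factors were 0.929 to 1.14 in FAPI, 0.888 to 0.986 in FapKO, 1.24 to 1.55 in MI and 0.626 to 0.697 in sham hearts. Scaled to total counts, the medians of the 35 genes were 1.09 in FAPI relative to MI hearts, 1.20 in FapKO relative to MI hearts, -1.05 in MI relative to sham hearts, 0.10 in FAPI relative to sham hearts and 0.12 in FapKO relative to sham hearts, so that both FAPI and FapKO medians relative to sham changed sign. The medians over all genes under that scaling were -0.44, -0.63, 1.23, 0.77 and 0.59 in the same order. Among all genes called, 14.6% were then higher in FAPI relative to MI, instead of 60.1%, and 16.6% in FapKO relative to MI, instead of 49.1%. In MI relative to sham it was 86.1%, instead of 53.7%. The same share was 86.8%, instead of 52.4%, in FAPI relative to sham, 91.7%, instead of 48.7%, in FapKO relative to sham, and 67.9%, instead of 53.5%, in FAPI relative to FapKO.

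Other cardiomyocyte genes moved with the sarcomere genes. Of 21 cardiomyocyte genes outside the sarcomere, 20 rose in FAPI relative to MI hearts, 20 rose in FapKO relative to MI hearts, and 19 fell and 1 rose in MI relative to sham hearts. Of all genes tested, 17.9% and 25.0% were higher in the first 2 comparisons, and 32.0% were lower and 37.1% higher in the third. The summed level of the 21 genes was 2844 to 5266 CPM in FAPI, 4396 to 5762 in FapKO, 904 to 2341 in MI and 7528 to 8167 in sham hearts, and none was under 1 CPM throughout a group. Phospholamban (Pln), a regulator of the calcium pump, had a log2 fold change (± SE) of -3.58 ± 0.22 in MI relative to sham hearts (edgeR adjusted p = 1.68e-09). With the libraries scaled to these 21 genes, the medians of the 35 genes were 0.26 in FAPI relative to MI hearts, 0.06 in FapKO relative to MI hearts, -0.02 in MI relative to sham hearts, 0.27 in FAPI relative to sham hearts and 0.01 in FapKO relative to sham hearts. On that scale 11 of the 35 genes were higher and 12 lower in MI relative to sham hearts, 13 higher and 3 lower in FAPI relative to MI hearts, and 10 higher and 8 lower in FapKO relative to MI hearts. Of all genes tested, 88.3% were called higher and 3.76% lower in MI relative to sham hearts on that scale, 1.08% higher and 87.3% lower in FAPI relative to MI hearts, and 1.85% higher and 89.6% lower in FapKO relative to MI hearts. Among all genes called, those higher made up 1.23% for FAPI relative to MI, 2.02% for FapKO relative to MI, 95.9% for MI relative to sham, 92.2% for FAPI relative to sham, 87.1% for FapKO relative to sham and 92.9% for FAPI relative to FapKO.

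**Figure D3:**
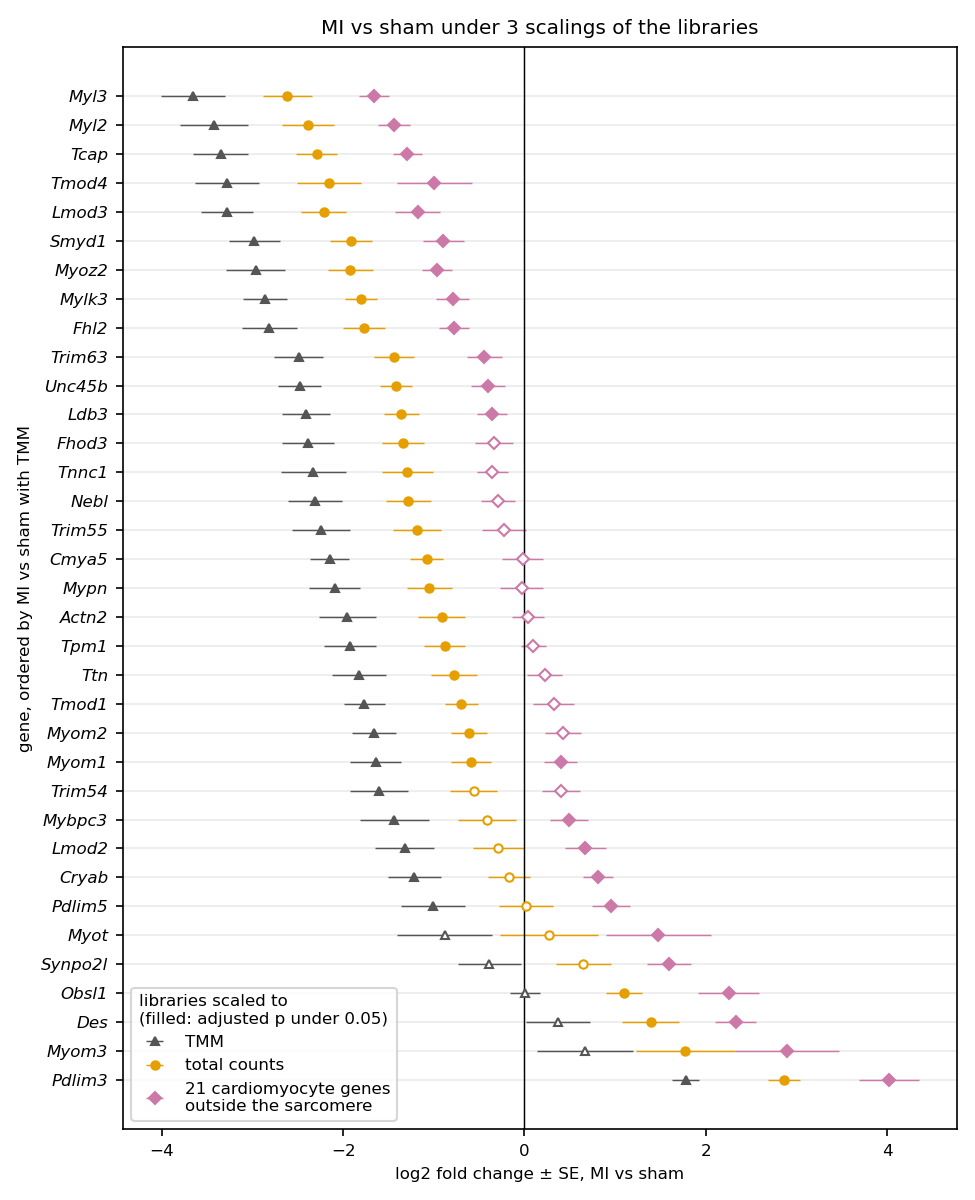
Log2 fold changes in MI relative to sham hearts (x axis, bars ± SE) of the 35 genes (y axis) with libraries scaled by TMM, to total counts, and to 21 cardiomyocyte genes outside the sarcomere; filled symbols have adjusted p under 0.05. From Actn2 down the page the values scaled to cardiomyocyte genes lie to the right of 0 while the TMM values of most of those genes lie to the left, and Pdlim3 lies to the right of 0 under all 3 scalings.

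Markers of other cell types differed between the same groups, and their part in these results was not tested. All 10 fibroblast markers and all 10 macrophage markers rose in MI relative to sham hearts, 3 and 7 of them fell in FAPI relative to MI hearts, and 7 and 10 fell in FapKO relative to MI hearts. Of all genes tested, 37.1% were higher in the first comparison, and 11.9% and 26.0% lower in the other 2. In FAPI relative to MI hearts, 6 fibroblast markers fell without MI replicate 3, beside 13.0% of all genes. Without MI replicate 2 and FapKO replicate 1, 2 fell there, beside 8.93% of all genes. Fibroblast markers summed to 8871 to 14426 CPM in FAPI, 8176 to 9353 in FapKO, 15676 to 22623 in MI and 3643 to 4241 in sham hearts. Macrophage markers summed to 5155 to 9055 CPM in FAPI, 3131 to 5905 in FapKO, 7867 to 10984 in MI and 2217 to 2439.7 in sham hearts. No marker on either list was under 1 CPM throughout a group. The mitochondrial share of counts was on average 12.0% in FAPI, 13.7% in FapKO, 5.60% in MI and 17.0% in sham hearts.

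The promoters of 4 members with different patterns are printed as the 250 bases before the RefSeq start site on GRCm38.p6 (mm10), for Myl3, which had the lowest fold change in MI hearts, for Ttn, the gene of the titin spring, for Pdlim3, which went the other way, and for Synpo2l, which was above sham in FAPI hearts. Capitals mark TATAA on the coding strand and, on either strand, CATTCC, the CArG box bound by serum response factor and the site bound by MEF2 factors; TATAA can lie within a MEF2 site.
Myl3 (chr9:110763428-110763677, plus strand): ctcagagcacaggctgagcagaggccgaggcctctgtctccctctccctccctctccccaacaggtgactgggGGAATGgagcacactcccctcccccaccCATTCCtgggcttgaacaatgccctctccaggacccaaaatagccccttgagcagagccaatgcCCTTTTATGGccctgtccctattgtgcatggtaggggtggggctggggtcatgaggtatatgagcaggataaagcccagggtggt
Ttn (chr2:76982548-76982797, minus strand): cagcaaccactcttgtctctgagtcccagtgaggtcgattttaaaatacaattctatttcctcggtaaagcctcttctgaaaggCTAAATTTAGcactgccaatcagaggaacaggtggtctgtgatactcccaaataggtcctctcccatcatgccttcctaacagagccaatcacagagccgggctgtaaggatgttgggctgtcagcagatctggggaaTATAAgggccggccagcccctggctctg
Pdlim3 (chr8:45885237-45885486, plus strand): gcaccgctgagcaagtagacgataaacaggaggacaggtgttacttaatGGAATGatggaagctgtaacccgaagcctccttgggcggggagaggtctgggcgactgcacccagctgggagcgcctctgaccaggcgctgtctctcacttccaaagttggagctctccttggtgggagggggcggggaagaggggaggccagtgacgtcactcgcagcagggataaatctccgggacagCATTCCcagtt
Synpo2l, first of 2 start sites (chr14:20668355-20668604, minus strand): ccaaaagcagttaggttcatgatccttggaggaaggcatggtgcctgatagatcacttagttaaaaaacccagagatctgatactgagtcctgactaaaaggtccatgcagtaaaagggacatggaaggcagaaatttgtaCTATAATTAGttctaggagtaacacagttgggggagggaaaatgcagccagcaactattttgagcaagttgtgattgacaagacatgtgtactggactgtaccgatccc
The Myl3 window held a CArG box from base -85 to -76 before the start site and CATTCC 2 times. The Ttn window held a MEF2 site from -166 to -157 and TATAA from -28 to -24. The Pdlim3 window held CATTCC 2 times and neither a CArG box nor a MEF2 site, and the Synpo2l window a MEF2 site from -109 to -100. RefSeq start sites can differ from the gene starts of GENCODE M21, which gave the gene spans printed below. The Myl3 window lies inside the Myl3 span, and the Pdlim3 window runs past the start of the Pdlim3 span. RefSeq promoters were matched for 28 of the 35 genes, with 37 start sites. A CArG box was found in 18.9% of these 37 windows and in 1.47% of all 32851 promoter windows of that length, a MEF2 site in 18.9% and 2.92%, CATTCC in 27.0% and 12.6%, and TATAA in 29.7% and 22.8%. These shares count matches on either strand anywhere in the window, TATAA included. The CArG boxes were those of Fhl2, Ldb3, Myl3, Myom1 and Nebl, and the MEF2 sites those of Fhl2, Mybpc3, Myom3, Myoz2, Synpo2l and Ttn. A match describes the letters of the window and is not a measured binding site.

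Among the thick filament genes, the 2 myosin light chain genes had the lowest fold changes in MI relative to sham hearts. Myl3 (chr9:110741861-110769798, plus strand), which encodes the essential light chain, had 2985, 4706, 3398 and 6034 CPM in FAPI hearts and 5117, 5001, 5862 and 4694 CPM in FapKO hearts. Myl3 stood at 482, 557, 1527 and 604 CPM in MI hearts and at 10311, 10537 and 9203 CPM in sham hearts. The groups with MI did not reach the sham level in any heart, and the MI hearts lay below every FAPI and FapKO heart. Its log2 fold change (± SE) was 2.43 ± 0.32 in FAPI relative to MI hearts (edgeR adjusted p = 0.000131), 2.71 ± 0.33 in FapKO relative to MI hearts (edgeR adjusted p = 6.57e-06) and -3.66 ± 0.35 in MI relative to sham hearts (edgeR adjusted p = 1.43e-07). Myl2 (chr5:122100951-122113472, plus strand), the regulatory light chain gene of the ventricle, had 4448, 6466, 5227 and 8917 CPM in FAPI hearts and 8934, 8255, 9539 and 7075 CPM in FapKO hearts. Myl2 stood at 1074, 1048, 3312 and 1179.8 CPM in MI hearts and at 18546, 19572 and 15149 CPM in sham hearts. MI replicate 3 was the highest MI heart by a wide margin and still below every FAPI and FapKO heart. The log2 fold changes of Myl2 were 1.92, 2.35 and -3.42 in the same order of comparisons. Mylk3, the cardiac kinase that phosphorylates the regulatory light chain, fell in MI relative to sham hearts (-2.86) and remained lower than sham in FAPI (-1.74) and FapKO hearts (-1.19). Mybpc3, the cardiac myosin-binding protein C gene, fell less (-1.44) and did not pass relative to sham in FAPI (-0.13) or FapKO hearts (-0.19). With libraries scaled to the cardiomyocyte genes outside the sarcomere, Mybpc3 lay on the other side of 0 in MI relative to sham (0.49) and in FapKO relative to MI hearts (-0.26).

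**Figure D4:**
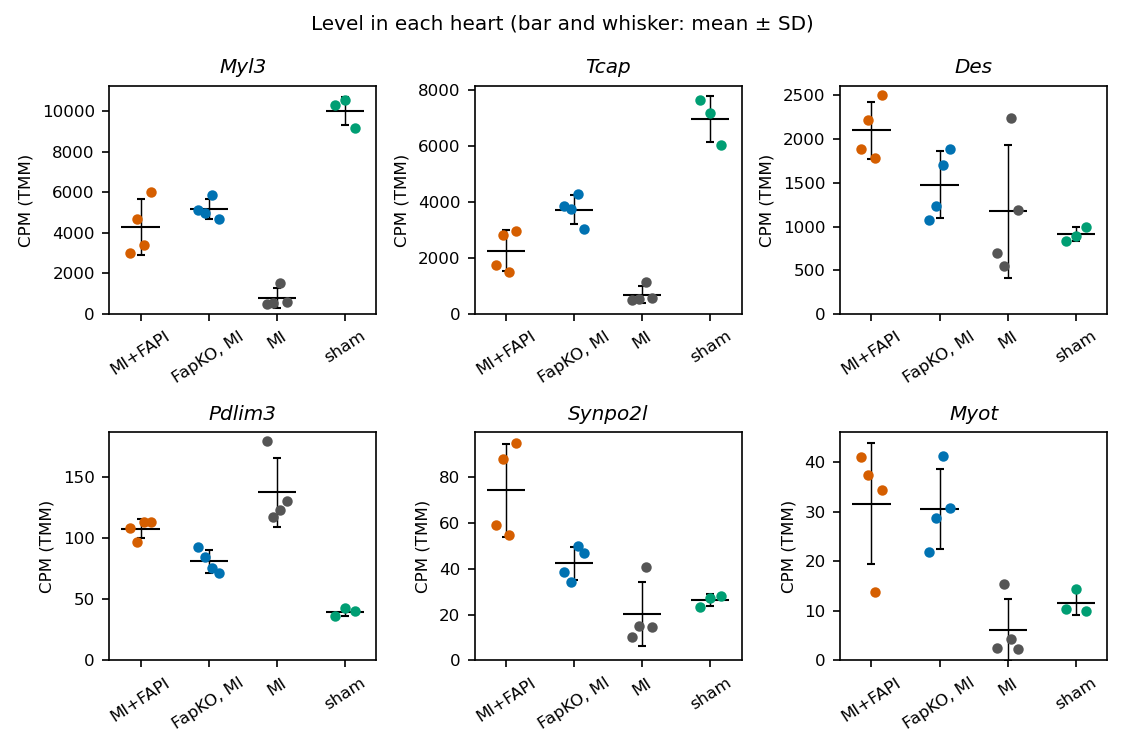
Level in CPM after TMM scaling (y axis, from 0) of 6 genes in FAPI-treated MI, FapKO MI, MI and sham hearts, with 1 point per heart and the mean ± SD. Myl3 and Tcap are lowest in MI and highest in sham hearts, Pdlim3 is highest in MI hearts, and Synpo2l is above sham in all 4 FAPI hearts.

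All 7 thin filament genes fell in MI relative to sham hearts, with Tmod1, Lmod2 and Tpm1 turning in sign when scaled to cardiomyocyte genes outside the sarcomere. Tnnc1 (chr14:31208312-31211729, plus strand), which encodes the calcium sensor troponin C of heart and slow muscle, had 3322, 4855, 3838 and 6958 CPM in FAPI hearts and 5323, 4498, 5657 and 5052 CPM in FapKO hearts. Tnnc1 stood at 885, 785, 2741 and 1083 CPM in MI hearts and at 7268, 7374 and 6080.3 CPM in sham hearts. Only FAPI replicate 4 among the 12 infarcted hearts reached the sham range, and MI replicate 3 was the highest MI heart by a wide margin. The log2 fold change was 1.79 ± 0.34 in FAPI relative to MI (edgeR adjusted p = 0.00107), 1.90 ± 0.34 in FapKO relative to MI (edgeR adjusted p = 0.000212) and -2.33 ± 0.36 in MI relative to sham hearts (edgeR adjusted p = 2.35e-05). Lmod3 (chr6:97238534-97252759, minus strand), a leiomodin that nucleates actin and is best known from skeletal muscle, had 77.8, 102, 58.9 and 105 CPM in FAPI hearts and 127, 113, 147 and 119 CPM in FapKO hearts. Lmod3 stood at 12.1, 24.0, 34.7 and 13.7 CPM in MI hearts and at 182, 221 and 214 CPM in sham hearts. The 4 groups did not overlap, and FAPI hearts were below FapKO hearts by a narrow margin. Lmod2, the cardiac leiomodin that lengthens thin filaments, had 158, 249.4, 141 and 213 CPM in FAPI hearts and 207, 189, 202 and 203 CPM in FapKO hearts. Lmod2 stood at 29.3, 40.6, 108 and 42.3 CPM in MI hearts and at 117, 130.2 and 166 CPM in sham hearts. The FapKO hearts were all above sham for Lmod2, although this did not pass the test (log2 fold change 0.54 ± 0.33, edgeR adjusted p = 0.196). Tmod1 had 7.96, 11.2, 6.97 and 12.0 CPM in FAPI hearts and 8.67, 10.3, 9.99 and 8.89 CPM in FapKO hearts. Tmod1 stood at 3.40, 2.71, 5.91 and 3.66 CPM in MI hearts and at 14.1, 15.02 and 10.8 CPM in sham hearts. It was below sham in every MI and FapKO heart, and 2 FAPI hearts lay within the sham range. Tmod1 and Tmod4, tropomodulins that cap the slow-growing filament end, had log2 fold changes of -1.77 and -3.28 in MI relative to sham hearts, and Tmod4 stayed below sham in FAPI (-2.28) and FapKO hearts (-1.48). The MI value of Tmod4 includes 9.10 CPM in MI replicate 2, the heart with skeletal muscle RNA, against 2.54 to 4.11 CPM in the other MI hearts. Tropomyosin (Tpm1), which winds along actin, and the formin gene Fhod3 had -1.92 and -2.39 in MI relative to sham hearts.

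Titin and the M-band genes covered a wide range. Tcap (chr11:98383811-98384953, plus strand), whose product telethonin caps titin at the Z-disc, had 1748, 2810.0, 1505 and 2981 CPM in FAPI hearts and 3867, 3740.2, 4274 and 3031 CPM in FapKO hearts. Tcap stood at 491, 521, 1139 and 578 CPM in MI hearts and at 7648, 7185 and 6057 CPM in sham hearts. Its 4 groups did not overlap at all. The log2 fold change was 1.73 ± 0.28 in FAPI relative to MI hearts (edgeR adjusted p = 0.000358), 2.45 ± 0.28 in FapKO relative to MI hearts (edgeR adjusted p = 4.18e-06), -3.35 ± 0.30 in MI relative to sham hearts (edgeR adjusted p = 6.98e-08) and -0.72 ± 0.27 in FAPI relative to FapKO hearts, which did not pass (edgeR adjusted p = 0.0855). Ttn itself had 947, 1408, 834 and 1476 CPM in FAPI hearts and 1453, 1215, 1596 and 1419.5 CPM in FapKO hearts. Ttn stood at 215, 355, 692 and 310.2 CPM in MI hearts and at 1212, 1399 and 1576 CPM in sham hearts. The FAPI and FapKO hearts overlapped sham for Ttn, while MI hearts lay below all others. The myomesin genes Myom1 and Myom2, which cross-link myosin at the M-band, fell in MI hearts (-1.64 and -1.66, but 0.40 and 0.42 when scaled to cardiomyocyte genes) and neither passed relative to sham in FAPI or FapKO hearts. Myom2 had 68.8, 93.2, 75.2 and 126 CPM in FAPI hearts and 80.3, 87.7, 89.7 and 64.5 CPM in FapKO hearts. Myom2 stood at 27.97, 31.7, 60.9 and 32.4 CPM in MI hearts and at 108, 116 and 139 CPM in sham hearts. Every FapKO and MI heart was below sham, and FAPI replicate 4 lay within the sham range. Myom3, the slow-fibre myomesin, was low at 1.34, 0.767, 1.58 and 2.05 CPM in FAPI hearts and 1.80, 1.19, 1.77 and 1.09 CPM in FapKO hearts. Myom3 stood at 0.402, 3.25, 1.71 and 1.00 CPM in MI hearts and at 1.05, 0.849 and 1.17 CPM in sham hearts, with as few as 13 counts in a heart. Its highest value was in MI replicate 2, and its fold change in FAPI relative to MI hearts was -0.16 with that heart and 0.48 without it. Obsl1, a cytoskeletal linker related to obscurin that is not restricted to muscle, had 5.34, 6.65, 4.48 and 5.51 CPM in FAPI hearts and 6.61, 5.14, 4.57 and 5.30 CPM in FapKO hearts. Obsl1 stood at 7.06, 6.68, 5.48 and 4.86 CPM in MI hearts and at 6.10, 5.23 and 6.69 CPM in sham hearts. All 4 groups overlapped for Obsl1, whose log2 fold change of 0.01 ± 0.17 in MI relative to sham hearts did not pass (edgeR adjusted p = 0.972).

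The Z-disc genes held the gene that went against the rest and some of those that stood above sham after infarction. Des, Lmod2 and Trim54, of other role groups, were also above sham in every FapKO heart. Pdlim3 (chr8:45885461-45919548, plus strand), which encodes the actinin-associated LIM protein, had 108, 96.6, 113 and 113 CPM in FAPI hearts and 92.9, 84.4, 75.8 and 71.8 CPM in FapKO hearts. Pdlim3 stood at 179, 117, 123 and 130.3 CPM in MI hearts and at 36.0, 43.2 and 40.6 CPM in sham hearts. The 4 groups did not overlap, with MI highest and sham lowest. It rose in MI relative to sham hearts (log2 fold change 1.78 ± 0.15, edgeR adjusted p = 3.12e-08), in FAPI relative to sham (1.43 ± 0.15, edgeR adjusted p = 1.05e-06) and in FapKO relative to sham (1.02 ± 0.14, edgeR adjusted p = 8.72e-05). It fell in FapKO relative to MI hearts (-0.76 ± 0.13, edgeR adjusted p = 0.000153). The lower level in FAPI relative to MI hearts (-0.35 ± 0.13, edgeR adjusted p = 0.0493) was at the edge of the threshold and lost it without MI replicate 1 (-0.20), without MI replicate 4 or without any 1 of the FAPI hearts. The higher level in FAPI relative to FapKO hearts (0.41 ± 0.13, edgeR adjusted p = 0.0481) lost it without any 1 of the FAPI hearts or without FapKO replicate 2, 3 or 4. Markers of smooth muscle and pericytes changed as well: 8 of 12 rose and 4 fell in MI relative to sham hearts, 4 rose and 6 fell in FAPI relative to MI hearts, and 4 rose and 7 fell in FapKO relative to MI hearts. In the same order, 37.1%, 17.9% and 25.0% of all genes were higher and 32.0%, 11.9% and 26.0% lower. The summed level of the 12 markers was 898 to 1202 CPM in FAPI, 832 to 992 in FapKO, 1434 to 2008 in MI and 1012 to 1073 in sham hearts, with 1 of the 12 under 1 CPM in every sham heart, and their part in the level of Pdlim3 was not tested.

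Synpo2l (chr14:20658946-20668354, minus strand), which encodes an actin-binding Z-disc protein, had 59.0, 88.0, 54.98 and 95.1 CPM in FAPI hearts and 38.6, 34.4, 50.04 and 46.7 CPM in FapKO hearts. Synpo2l stood at 10.0, 15.2, 40.9 and 14.5 CPM in MI hearts and at 23.5, 27.3 and 28.2 CPM in sham hearts. Synpo2l was singled out after its values were seen. Every FAPI heart was above every FapKO and sham heart, and every FapKO heart was above sham. The higher level in FAPI relative to sham hearts passed the test (1.496 ± 0.36, edgeR adjusted p = 0.00222), that in FapKO relative to sham did not (0.69 ± 0.35, edgeR adjusted p = 0.131), and neither did the difference between FAPI and FapKO hearts (0.81 ± 0.32, edgeR adjusted p = 0.1). Myot, the gene of the actin cross-linker myotilin, had 40.9, 37.3, 13.8 and 34.3 CPM in FAPI hearts and 21.8, 28.6, 41.3 and 30.7 CPM in FapKO hearts. Myot stood at 2.41, 15.4, 4.39 and 2.39 CPM in MI hearts and at 10.3, 14.3 and 9.92 CPM in sham hearts. MI replicate 2, with its skeletal muscle RNA, was the highest MI heart for Myot, FAPI replicate 3 lay within the sham range, and the FapKO hearts were all above sham. Myot rose in FAPI relative to MI (2.33 ± 0.48, edgeR adjusted p = 0.00199), in FapKO relative to MI (2.29 ± 0.48, edgeR adjusted p = 0.000863) and in FAPI and FapKO relative to sham hearts (1.46 and 1.41). Without MI replicate 2 and FapKO replicate 1, Myot had 3.35 in FAPI and 3.44 in FapKO relative to MI hearts, the highest of the 35 genes. The Z-disc LIM protein gene Fhl2 had 812, 1343, 1127 and 1849.6 CPM in FAPI hearts and 1569, 1720.3, 1996 and 1569 CPM in FapKO hearts. Fhl2 stood at 276, 221, 614 and 384 CPM in MI hearts and at 2889, 2549.8 and 2464 CPM in sham hearts. All infarcted hearts were below sham for Fhl2, and all FAPI and FapKO hearts above MI, with log2 fold changes of 1.78 in FAPI and 2.20 in FapKO relative to MI and -2.82 in MI relative to sham hearts. Alpha-actinin (Actn2), which cross-links actin at the Z-disc, its binding partner Ldb3, the calcineurin-binding Myoz2, the myopalladin gene Mypn and the nebulette gene Nebl fell in MI relative to sham hearts, with log2 fold changes between -2.96 (Myoz2) and -1.95 (Actn2, 0.042 when scaled to cardiomyocyte genes). Mypn had 15.4, 22.5, 13.6 and 22.4 CPM in FAPI hearts and 25.8, 25.3, 28.9 and 27.4 CPM in FapKO hearts. Mypn stood at 4.12, 5.57, 11.0 and 4.74 CPM in MI hearts and at 20.1, 26.1 and 35.4 CPM in sham hearts. FAPI hearts were all below FapKO hearts for Mypn, and both overlapped sham. Of these 5 genes, Ldb3, Myoz2 and Nebl were lower than sham in FAPI hearts, and of the 5 Nebl alone in FapKO hearts (-0.77). Pdlim5, an enigma-family LIM protein gene, fell in MI relative to sham hearts (-1.01) with overlapping groups, and its value was 0.02 with libraries scaled to total counts.

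In the desmin and chaperone group, desmin differed from its chaperone. Des (chr1:75360329-75368579, plus strand), the muscle intermediate filament gene, had 1885, 2223, 1784 and 2503 CPM in FAPI hearts and 1076, 1237, 1708 and 1886 CPM in FapKO hearts. Des stood at 702, 549, 2243 and 1194 CPM in MI hearts and at 839, 894 and 995 CPM in sham hearts. The MI hearts were spread on both sides of sham, and every FAPI and FapKO heart was above sham. Des rose in FAPI relative to sham hearts (1.21 ± 0.36, edgeR adjusted p = 0.00979) and did not pass in FapKO relative to sham (0.70 ± 0.36, edgeR adjusted p = 0.129) or in MI relative to sham hearts (0.37 ± 0.35, edgeR adjusted p = 0.365), where the value was -0.16 without MI replicate 3. Without that heart, Des passed the test in FAPI relative to MI hearts (1.36, edgeR adjusted p = 0.000581), against 0.84 and an adjusted p of 0.063 with it. Cryab, whose product alpha-B-crystallin guards desmin and titin from misfolding, had 4381, 6265, 5072 and 7196 CPM in FAPI hearts and 3993, 4450.4, 5709.8 and 5507 CPM in FapKO hearts. Cryab stood at 1833, 1228, 3843 and 2329 CPM in MI hearts and at 5559, 5890.2 and 4658 CPM in sham hearts. The MI hearts were below sham and the FAPI and FapKO hearts overlapped it, with 1.31 in FAPI and 1.09 in FapKO relative to MI and -1.22 in MI relative to sham hearts. Cryab overlaps Hspb2 on the other strand and 20 of the 35 genes share ground with another annotated gene; whether the counting used strand is not given in the sources used here, so that these levels are uncertain to that extent. Unc45b had 25.3, 32.6, 23.5 and 42.6 CPM in FAPI hearts and 41.3, 36.4, 52.6 and 43.1 CPM in FapKO hearts. Unc45b stood at 10.7, 10.2, 21.2 and 15.95 CPM in MI hearts and at 79.8, 82.8 and 80.1 CPM in sham hearts. Smyd1 had 15.4, 29.8, 20.2 and 36.2 CPM in FAPI hearts and 32.1, 29.2, 37.5 and 31.7 CPM in FapKO hearts, while it stood at 4.55, 5.70, 10.4 and 4.74 CPM in MI hearts and at 54.5, 42.0 and 53.8 CPM in sham hearts. For both, MI hearts were lowest and all infarcted hearts were below sham. The myosin chaperone gene Unc45b, the muscle methyltransferase gene Smyd1 and the costamere gene Cmya5 fell in MI relative to sham hearts (-2.48, -2.98 and -2.15) and rose in FAPI relative to MI (1.10, 2.00 and 1.18) and FapKO relative to MI hearts (1.58, 2.36 and 1.75); scaled to cardiomyocyte genes, Unc45b had -0.17 in FAPI and -0.080 in FapKO, and Cmya5 -0.12 in FAPI, relative to MI hearts.

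The 3 muscle TRIM proteins are ubiquitin ligases of the sarcomere, and Trim63 (MuRF1) is known from muscle atrophy. Trim63 had 60.6, 93.9, 47.2 and 80.4 CPM in FAPI hearts and 79.5, 69.1, 93.2 and 74.1 CPM in FapKO hearts. Trim63 stood at 15.9, 16.8, 39.5 and 26.0 CPM in MI hearts and at 138, 131 and 145 CPM in sham hearts. Every infarcted heart was below sham, with log2 fold changes of -0.97 in FAPI, -0.80 in FapKO and -2.49 in MI relative to sham hearts, all past the test. Trim54 (MuRF3) had 62.6, 99.3, 51.9 and 103 CPM in FAPI hearts and 83.4, 88.9, 131 and 98.4 CPM in FapKO hearts. Trim54 stood at 15.9, 13.8, 43.6 and 24.1 CPM in MI hearts and at 72.6, 83.0 and 66.8 CPM in sham hearts. Trim54 fell in MI relative to sham hearts (-1.61, but 0.40 when scaled to cardiomyocyte genes) and did not pass relative to sham in FAPI (0.09) or FapKO hearts (0.44), where all 4 values were above sham. Trim55 (MuRF2) had 6.79, 10.0, 7.41 and 13.8 CPM in FAPI hearts and 8.63, 11.1, 10.2 and 8.31 CPM in FapKO hearts. Trim55 stood at 1.52, 2.06, 5.16 and 2.27 CPM in MI hearts and at 13.9, 12.7 and 12.5 CPM in sham hearts. MI hearts were below all others, and FAPI replicate 4 lay within the sham range. Trim55 had log2 fold changes of -2.24 in MI relative to sham hearts and 1.79 in FAPI and 1.79 in FapKO relative to MI hearts.

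Ratios of related genes within a heart do not depend on how libraries are scaled, and 15 pairs were compared. Lmod3 over Lmod2 had log2 ratios of -1.02, -1.29, -1.26 and -1.02 in FAPI hearts and -0.71, -0.75, -0.46 and -0.78 in FapKO hearts. Lmod3/Lmod2 was -1.27, -0.76, -1.64 and -1.63 in MI hearts and 0.64, 0.76 and 0.37 in sham hearts. Every infarcted heart was below every sham heart, and every FAPI heart was below every FapKO heart. Tcap over Ttn had log2 ratios of 0.88, 0.997, 0.85 and 1.01 in FAPI hearts and 1.41, 1.62, 1.42 and 1.09 in FapKO hearts. Tcap/Ttn was 1.19, 0.56, 0.72 and 0.90 in MI hearts and 2.66, 2.36 and 1.94 in sham hearts. The FAPI hearts were below every FapKO heart and within the MI range. Trim63 over Trim54 had log2 ratios of -0.05, -0.08, -0.14 and -0.35 in FAPI hearts and -0.07, -0.36, -0.50 and -0.41 in FapKO hearts. Trim63/Trim54 was 0.00, 0.28, -0.14 and 0.11 in MI hearts and 0.93, 0.66 and 1.12 in sham hearts. No infarcted group was apart from the others for Trim63/Trim54. Cryab over Des had log2 ratios of 1.22, 1.49, 1.51 and 1.52 in FAPI hearts and 1.89, 1.85, 1.74 and 1.55 in FapKO hearts. Cryab/Des was 1.38, 1.16, 0.78 and 0.96 in MI hearts and 2.73, 2.72 and 2.23 in sham hearts. For these 4 pairs, all infarcted hearts were below all sham hearts, whichever treatment or genotype they had.

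Relative to sham, the mean log2 ratio of Lmod3 over Lmod2 differed by -1.74 in FAPI, -1.26 in FapKO and -1.91 in MI hearts. For each of these 4 pairs and each infarcted group, the exact permutation test over hearts, two-sided, gave p = 0.0286, the smallest that 4 hearts against 3 or against 4 can give. After Benjamini-Hochberg adjustment over the 15 pairs of a comparison, 9 pairs passed in FapKO relative to sham hearts by the exact permutation test (adjusted p = 0.0476 each). These were Lmod3/Lmod2, Tcap/Ttn (-0.93), Trim63/Trim54 (-1.23), Cryab/Des (-0.80), Unc45b/Smyd1 (-0.30), Lmod2/Tmod1 (1.04), Trim54/Trim55 (0.88), Myot/Mypn (1.37) and Myom3/Myom2 (1.06). Of all single genes tested, 39.5% were called in either direction in FapKO relative to sham hearts. How often ratios of other gene pairs separate these or the other groups was not tested, so that the counts of pairs have no background share. None of the 15 pairs passed in the other 5 comparisons. There the unadjusted exact permutation p was under 0.05 for 3 pairs in FAPI and 6 in FapKO relative to MI hearts. It was under 0.05 for 4 pairs in MI and 8 in FAPI relative to sham hearts, and for 3 in FAPI relative to FapKO. Since p cannot be below 0.0286 in this exact permutation test, no pair can pass unless at least 9 of the 15 reach it. In FAPI relative to sham hearts 8 reached it (exact permutation test, adjusted p = 0.0536). Passing in FapKO hearts alone is thus no contrast between FapKO and the other groups. Some pairs also share a gene, such as Lmod2 or Trim54. The 9 calls stand or fall together, since they share 1 p: with 5 counts added to each gene, 8 pairs kept it and none passed (exact permutation test, adjusted p = 0.0536), and adjusted over all 90 tests the smallest exact permutation p was 0.0779.

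Between infarcted groups, 3 ratios separated FAPI from FapKO hearts without overlap: Lmod3/Lmod2 (-0.48), Cryab/Des (-0.32) and Tcap/Ttn (-0.45), each with an exact permutation p of 0.0286 and an adjusted p of 0.143. Unc45b over Smyd1 had log2 ratios of 0.71, 0.13, 0.22 and 0.24 in FAPI hearts and 0.36, 0.32, 0.49 and 0.44 in FapKO hearts. Unc45b/Smyd1 was 1.23, 0.84, 1.03 and 1.75 in MI hearts and 0.55, 0.98 and 0.57 in sham hearts. It was lower in every FAPI and FapKO heart than in any MI heart, with mean differences of -0.89 in FAPI and -0.81 in FapKO. Pdlim3 over Pdlim5, 2 LIM protein genes of the Z-disc, had -2.32, -3.05, -2.69 and -3.38 in FAPI hearts and -2.88, -2.96, -3.61 and -3.62 in FapKO hearts. Pdlim3/Pdlim5 was 0.18, -0.24, -2.08 and -0.995 in MI hearts and -3.80, -3.76 and -3.74 in sham hearts. MI hearts were the highest and sham hearts the lowest, without overlap between either of them and the other groups. Myl2 over Myl3 had a mean difference of -0.48 in FAPI and -0.33 in FapKO relative to MI hearts, again without overlap (exact permutation p = 0.0286 for each, adjusted p 0.143 in FAPI and 0.0714 in FapKO).

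**Figure D5:**
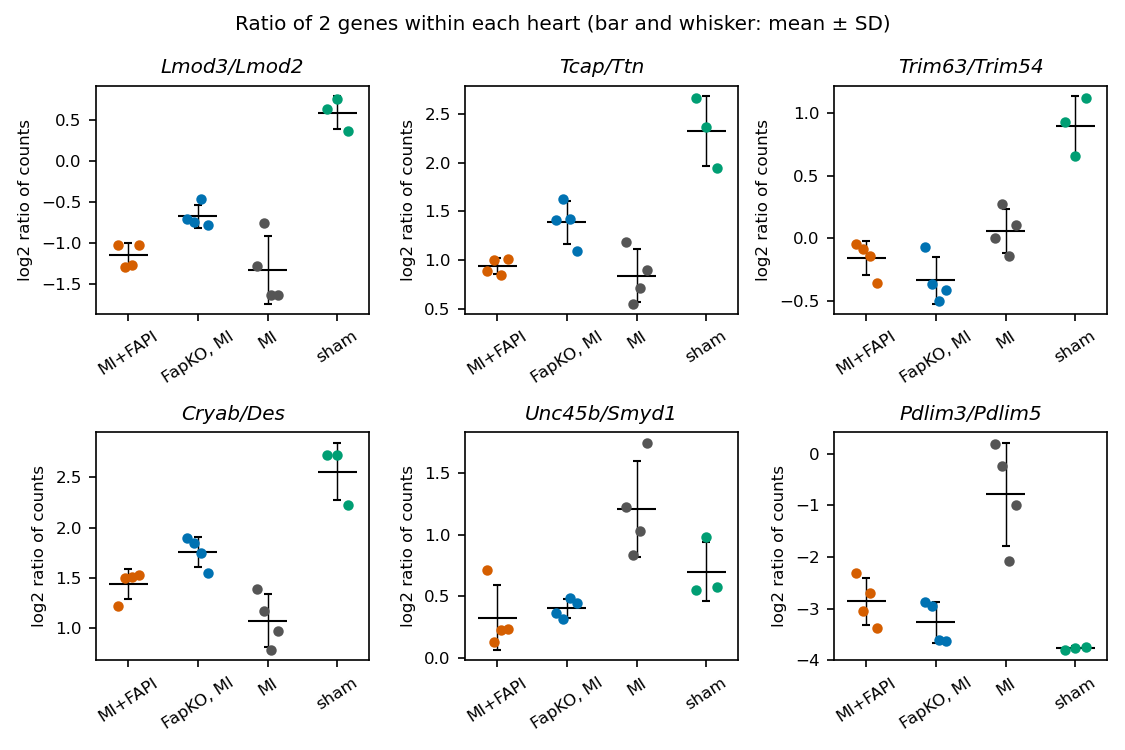
Log2 ratio of the counts of 2 genes within a heart (y axis, a different range in each panel) for 6 pairs in FAPI-treated MI, FapKO MI, MI and sham hearts, with 1 point per heart and the mean ± SD. In the first 4 panels every infarcted heart lies below every sham heart, and in the last the MI hearts lie above the other groups.

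Other genes of the same structures changed too on the TMM scale. Of 36 further sarcomere and myofibril genes, 25 rose and 1 fell in FAPI relative to MI hearts, 20 rose and 1 fell in FapKO relative to MI hearts, and 4 rose and 18 fell in MI relative to sham hearts, with medians of 1.09, 0.90 and -0.59. Of all genes tested, 17.9% were higher and 11.9% lower in FAPI relative to MI, 25.0% and 26.0% in FapKO relative to MI, and 37.1% and 32.0% in MI relative to sham hearts. The adult cardiac myosin heavy chain gene Myh6 had 698, 1053, 526 and 1116 CPM in FAPI hearts and 1573, 1351, 1483 and 1209 CPM in FapKO hearts. Myh6 stood at 142, 158, 362 and 134 CPM in MI hearts and at 2529.8, 2544 and 2732 CPM in sham hearts. Skeletal alpha-actin, Acta1, had 3738, 4595, 1852 and 3678 CPM in FAPI hearts and 2961, 1891, 4481 and 3922 CPM in FapKO hearts. Acta1 stood at 269, 802, 665 and 325 CPM in MI hearts and at 431, 687 and 553 CPM in sham hearts. Myh6 thus stayed below sham in every infarcted heart, while Acta1 was above sham in every FAPI and FapKO heart. Acta1 rose in FAPI relative to MI hearts with a log2 fold change of 2.75 ± 0.37 (edgeR adjusted p = 0.000141). Cavin4, a membrane protein gene of muscle, rose in FAPI (1.88 ± 0.25) and FapKO (2.30 ± 0.25) relative to MI hearts.

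Of 14 cardiac muscle transcription regulators, 4 rose and 2 fell in FAPI relative to MI hearts, 6 rose and 1 fell in FapKO relative to MI hearts, and 2 rose and 10 fell in MI relative to sham hearts. That is beside 17.9% higher and 11.9% lower of all genes tested in FAPI relative to MI, 25.0% and 26.0% in FapKO relative to MI, and 37.1% and 32.0% in MI relative to sham hearts. Nkx2-5, a cardiac homeobox factor, rose in FAPI relative to MI (1.28 ± 0.29, edgeR adjusted p = 0.00361) and in FapKO relative to MI hearts (1.56 ± 0.29, edgeR adjusted p = 0.000311). Of these 14 regulators, Nkx2-5 and Tbx20 are also among the 21 cardiomyocyte genes outside the sarcomere, so that the 2 lists are not separate. Mrtfa, a coactivator of serum response factor, rose in MI relative to sham hearts (1.59 ± 0.17) and fell in FapKO relative to MI hearts (-0.75 ± 0.14). Of 14 muscle protein turnover genes, 3 rose and 0 fell in FAPI relative to MI hearts, 6 rose and 2 fell in FapKO relative to MI hearts, and 3 rose and 6 fell in MI relative to sham hearts, beside the same shares of all genes. Leaving out MI replicate 2, 1 turnover gene rose in FAPI relative to MI and 1 in MI relative to sham hearts, beside 14.6% and 35.6% of all genes. The muscle ubiquitin ligase gene Fbxo40 rose in FAPI (1.43 ± 0.27) and FapKO (1.40 ± 0.27) relative to MI hearts, and Klf15, a transcription factor that restrains hypertrophy, fell in MI relative to sham hearts (-1.96 ± 0.18).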

How the data were processed

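Total RNA was sequenced from Smart-seq2-type libraries with UMI barcodes, per the labels' protocols, and the submitters' processing notes name STAR, HTSeq and mm10. The deposited values are whole-number counts per gene, made by the authors; whether they are counts of UMIs or reads, and tool versions, are not stated there. Symbols and exon lengths came from GENCODE M21, and promoters from RefSeq. The 15 heart libraries were grouped by their labels, filtered with filterByExpr, scaled by TMM and fitted with edgeR 4.0.16 in 1 quasi-likelihood model with a coefficient per group, and p-values were Benjamini-Hochberg adjusted over 17064 genes. Gene pairs were compared by the exact permutation test of log2((count + 0.5)/(count + 0.5)). Values per heart were given by rule for the member of each role group with the most counts per kilobase, in each of FAPI vs MI, FapKO vs MI and MI vs sham for the 3 members with the largest and the 2 with the smallest absolute log2 fold change and those against the common sign, and for members of pairs that passed; of other lists, the 2 genes with the smallest p in each of these comparisons could be named. The members and lists were chosen with earlier results of these data known. The fit was tested on simulated data. No 2 libraries of a group were copies within sampling noise. Alternatives were DESeq2 1.42.0, other scalings and filters, a replicate block and leaving out libraries. The lowest count of a member in a heart was 13.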

Additional observations from a re-analysis of the deposited data

Results flagged for a closer look

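Within the 4 MI hearts, replicate 3 stood apart from the others for 7 of the 35 genes, its gap to the nearest heart, as a share of the group's whole range, being over Dixon's critical value. Its level was 3311.5 CPM for Myl2, against 1047.6 to 1179.8 CPM in the other MI hearts, 1526.9 CPM for Myl3 (482.09 to 604.07), 2741.4 CPM for Tnnc1 (785.45 to 1083.4), 107.99 CPM for Lmod2 (29.274 to 42.311), 1138.8 CPM for Tcap (490.9 to 578.33), 60.855 CPM for Myom2 (27.974 to 32.369) and 40.85 CPM for Synpo2l (10.026 to 15.185). MI replicate 2 stood apart for Myot, at 15.391 CPM against 2.3891 to 4.3868 CPM, and for the summed fast skeletal muscle markers, at 879.73 CPM against 28.015 to 63.716 CPM. FapKO replicate 1 stood apart for the same sum, at 344.09 CPM against 41.69 to 62.086 CPM. These are 10 of the 111 groups of 4 hearts looked at. Chance gives about 1 in 20 for a single group. The groups reuse the same hearts, so that the 10 are not independent and their number cannot be set against that rate. For Pdlim3, the log2 fold changes of FAPI and of FapKO relative to the same MI hearts differed by 0.40578, which is the FAPI relative to FapKO comparison of the report.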

How the results depend on the processing

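The fall of most of the 35 genes in MI relative to sham hearts, and their rise in FAPI and FapKO relative to MI hearts, kept their counts within 1.5 times under every alternative except the scaling to 21 cardiomyocyte genes outside the sarcomere. Under that scaling the numbers higher and lower were 13 and 3 in FAPI relative to MI, 10 and 8 in FapKO relative to MI, 11 and 12 in MI relative to sham, 12 and 6 in FAPI relative to sham and 7 and 4 in FapKO relative to sham, and 4 were higher in FAPI relative to FapKO. Of all genes tested, 1.08% were higher and 87.3% lower in FAPI relative to MI, 1.85% and 89.6% in FapKO relative to MI, 88.3% and 3.76% in MI relative to sham, 60.5% and 5.14% in FAPI relative to sham, 19.8% and 2.92% in FapKO relative to sham, and 7.16% and 0.551% in FAPI relative to FapKO. The sign changed for 11 genes in FAPI relative to sham, of which Tpm1 (0.027) had been called, for 9 in FapKO relative to sham and 14 in FAPI relative to FapKO, none of them called. In MI relative to sham 13 changed sign, Mybpc3 0.49, Myom1 0.40, Myot 1.48, Pdlim5 0.95, Tmod1 0.32, Lmod2 0.67, Myom2 0.42, Cryab 0.81, Tpm1 0.10, Synpo2l 1.60, Ttn 0.22, Actn2 0.042 and Trim54 0.40. In FAPI relative to MI 7 did, Tmod4 -0.46, Unc45b -0.17, Des -0.28, Myom2 -0.021, Mylk3 -0.12, Tpm1 -0.071 and Cmya5 -0.12. In FapKO relative to MI 11 did, Mybpc3 -0.26, Tmod4 -0.067, Unc45b -0.080, Myom1 -0.045, Des -1.20, Tmod1 -0.38, Myom2 -0.58, Cryab -0.51, Tpm1 -0.43, Synpo2l -0.49 and Nebl -0.053. Scaled to total counts, 4 genes were higher in MI relative to sham (Myot 0.27, Pdlim5 0.020 and Synpo2l 0.65 changed sign), 2 were lower in FAPI relative to MI, 2 were lower in FapKO relative to MI (Des -0.16 changed sign), 9 were higher and 6 lower in FAPI relative to sham, 7 higher and 2 lower in FapKO relative to sham, and 2 higher in FAPI relative to FapKO. The shares of all genes higher and lower were then 8.49% and 49.7% in FAPI relative to MI, 12.2% and 61.3% in FapKO relative to MI, 74.2% and 11.9% in MI relative to sham, 63.1% and 9.56% in FAPI relative to sham, 53.7% and 4.83% in FapKO relative to sham, and 9.22% and 4.37% in FAPI relative to FapKO. Uncalled values changed sign under it for 10 genes in FAPI relative to sham, 12 in FapKO relative to sham and 4 in FAPI relative to FapKO. With DESeq2, 1 gene was higher in FapKO relative to sham and 2 were lower in FAPI relative to FapKO, beside 16.6% and 8.39% of all genes. Obsl1 in MI relative to sham was then -0.0597 (-0.0604 with RLE size factors). The lower call of Pdlim3 in FAPI relative to MI was lost (0 lower) with RLE size factors, with no filter on low counts, with only the groups compared and with a replicate block, and its higher call in FAPI relative to FapKO (0 higher) with RLE size factors and with the replicate block. With no filter, 4 genes were higher in FapKO relative to sham, beside 10.2% of all genes. In FAPI relative to FapKO 2 were then higher and 4 lower, beside 3.82% and 3.51%. With only the groups compared, 7 were higher and 20 lower in FapKO relative to sham, beside 21.6% and 20.4% of all genes. In FAPI relative to FapKO 2 were then higher and 3 lower, beside 6.33% and 5.84%, and Obsl1 in MI relative to sham was -0.0056. The labels do not say that replicate numbers pair the hearts. Of 21 same-number pairs, 6 had correlated deviations over 0.1 (-0.437 to 0.413), and pairs of different number ran from -0.454 to 0.587. With so few hearts per group this cannot exclude a pairing. The block changed no other count by over 1.5 times. Without MI replicate 2 and FapKO replicate 1, chosen after seeing the data, Obsl1 was -0.044 in MI relative to sham, Myom3 0.48 in FAPI and 0.38 in FapKO relative to MI, Myom2/Myom1 -0.078 in MI relative to sham and Tmod4/Tmod1 0.42 in FAPI relative to MI. With 5 counts added, 0 pairs passed in FapKO relative to sham. Leaving out 1 heart at a time, the values ranged from -0.086 to 0.10 for Obsl1 and from -0.16 to 0.60 for Des in MI relative to sham, from -0.48 to 0.48 in FAPI and from -0.47 to 0.49 in FapKO relative to MI for Myom3, from -0.078 to 0.17 for Myom2/Myom1 in MI relative to sham and from -0.34 to 0.42 for Tmod4/Tmod1 in FAPI relative to MI. The counts ranged from 0 to 1 lower in FAPI relative to MI, 1 to 2 higher and 3 to 8 lower in FapKO relative to sham (3 without sham replicate 1 or FapKO replicate 4), and 0 to 1 higher and 0 to 3 lower in FAPI relative to FapKO (3 without FAPI replicate 4). Of all genes, 6.43% to 13.0% were then lower in FAPI relative to MI. In FapKO relative to sham 12.9% to 19.8% were higher and 14.1% to 20.4% lower. In FAPI relative to FapKO 3.71% to 9.11% were higher and 2.91% to 8.05% lower. The pair tests against sham cannot pass with a heart left out. Where a value changed with a setting, the cause was not tested. Depth limits Myom3 most, and the number of hearts limits every comparison.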

Other observations

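Some gene lists have not been described above. Of 10 endothelial markers, 1 rose and 1 fell in FAPI relative to MI hearts, 5 rose and 0 fell in FapKO relative to MI hearts, and 1 rose and 5 fell in MI relative to sham hearts. Without MI replicate 3, 3 rose and 0 fell in FAPI relative to MI hearts. The endothelial markers had summed levels of 304 to 374 CPM in FAPI, 351 to 393 in FapKO, 259 to 359 in MI and 351 to 396 in sham hearts. Of the 6 atrial myocyte markers tested, 0 rose and 2 fell in FAPI relative to MI hearts, 0 rose and 2 fell in FapKO relative to MI hearts, and 4 rose and 0 fell in MI relative to sham hearts. The 2 that fell in FAPI relative to MI hearts were Sln, at 4.03, 6.21, 1.02 and 1.07 CPM in FAPI and 5.32, 156, 48.6 and 1.08 CPM in MI hearts, and Myl4, at 10.7, 11.1, 9.36 and 10.1 CPM in FAPI and 11.0, 75.4, 31.9 and 10.8 CPM in MI hearts, with MI replicates 2 and 3 the highest for both. When MI replicate 2 was left out, 0 rose and 1 fell (Myl7) in FAPI relative to MI hearts, 1 rose and 2 fell in FapKO relative to MI hearts, and 2 rose and 1 fell in MI relative to sham hearts. Without MI replicate 3, 3 fell in FAPI relative to MI and 1 fell in FapKO relative to MI hearts. Myl4 and Myl7 are also among the 36 further sarcomere and myofibril genes. The 8 atrial markers listed summed to 597 to 1356 CPM in FAPI, 633 to 834 in FapKO, 357 to 935 in MI and 165 to 240.1 in sham hearts. Of the 13 fast skeletal muscle markers tested, 1 rose and 10 fell in FAPI relative to MI hearts, 1 rose and 0 fell in FapKO relative to MI hearts, and 1 rose and 0 fell in MI relative to sham hearts. The 10 falls rested on MI replicate 2, the heart with 879.73 CPM of these markers: without it, 2 rose and 0 fell in FAPI relative to MI hearts, 4 rose and 0 fell in FapKO relative to MI hearts, and 0 rose and 1 fell in MI relative to sham hearts. Without MI replicate 2 and FapKO replicate 1, 12 of these markers were tested, of which 2 rose and 1 fell in FAPI relative to MI hearts, 2 rose and 1 fell in FapKO relative to MI hearts, and 1 rose and 1 fell in MI relative to sham hearts. Without MI replicate 3, 7 rose and 0 fell in MI relative to sham hearts. For all these lists, 17.9% of all genes tested were higher and 11.9% lower in FAPI relative to MI, 25.0% and 26.0% in FapKO relative to MI, and 37.1% and 32.0% in MI relative to sham hearts. In the same order these shares were 14.6% and 9.10%, 23.2% and 23.4%, and 35.6% and 31.1% without MI replicate 2. Without MI replicate 3 they were 19.5% and 13.0%, 25.8% and 25.5%, and 36.6% and 32.0%. Without MI replicate 2 and FapKO replicate 1 they were 14.2% and 8.93%, 22.3% and 22.0%, and 35.5% and 31.0%.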
